A study of Mus musculus with 12 samples.

Results

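Mouse neuroblastoma tumors labelled 72 h for high intensity focused ultrasound (HIFU) were compared with tumors labelled 48 h. HIFU is sound focused on a point inside the body, and the series used it to break up tissue mechanically. The comparison takes the 3 arrays titled 72 h and the 3 titled 48 h, 6 of the 12 arrays of the series, and all 22206 probe sets on them. All tumors came from neuroblastoma cells that had been injected into A/J mice. The 48 h and 72 h groups both received HIFU, and the levels of the 3 untreated control tumors serve here only as a reference. The sources used here do not name the cell line, the injection site, the age and sex of the mice or the part of the tumor sampled. Reading the labels as hours after HIFU is an assumption, since the treatment label says only for how long. Replicates are called tumors 1, 2 and 3 after their titles, and nothing in the labels says that they came from separate animals, so the p-values measure only the spread between these samples, which may be technical. Levels are log2 signals, on which 1 unit is a 2-fold difference. A gene is called higher or lower at an unadjusted p under 0.05 with a difference of at least 2-fold, or at a Benjamini-Hochberg adjusted p under 0.05. Differences carry the standard error (SE) of limma's fit to all 12 arrays, which also hold 3 tumors labelled 24 h for HIFU. The 24 h and the untreated tumors enter the estimate of the spread and the mean signal over 12 arrays. Levels at 24 h are not described here.

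Neutrophils are made in the bone marrow, where a precursor fills its granules in a fixed order. Primary granules, with myeloperoxidase and elastase, are filled first, secondary granules, with lactoferrin and Ngp, next, and tertiary granules, with gelatinase, last. Receptors such as Cxcr2 mark the mature cells that leave the marrow, so the transcripts present show roughly which stages are in a sample. Red cell and platelet precursors share the marrow with them, and osteoblasts, osteocytes and osteoclasts line and fill the bone around it.

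Of the 50 gene lists described here, those of neutrophils and of red cells had the highest median differences at 72 h. Ltf, Ngp, Mpo and Elane are shown with the 250 bases before their start because they had the 4 lowest p-values of the neutrophil list and mark the early granule stages. The sequences are those of RefSeq for GRCm38.p6, all 4 genes matched, and all lie on the + strand. The positions are Ltf chr9:111019042-111019291, Ngp chr9:110419558-110419807, Mpo chr11:87793534-87793783, Elane chr10:79886062-79886311. Capitals mark matches on either strand to the C/EBP letters TTGCNNAA or the PU.1 letters GAGGAAG, the names of regulators of granulocyte genes.
Ltf: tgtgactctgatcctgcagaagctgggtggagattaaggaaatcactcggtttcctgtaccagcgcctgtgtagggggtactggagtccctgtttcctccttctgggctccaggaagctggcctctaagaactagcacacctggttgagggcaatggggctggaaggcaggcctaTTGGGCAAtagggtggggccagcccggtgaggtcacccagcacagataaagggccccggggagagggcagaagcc
Ngp: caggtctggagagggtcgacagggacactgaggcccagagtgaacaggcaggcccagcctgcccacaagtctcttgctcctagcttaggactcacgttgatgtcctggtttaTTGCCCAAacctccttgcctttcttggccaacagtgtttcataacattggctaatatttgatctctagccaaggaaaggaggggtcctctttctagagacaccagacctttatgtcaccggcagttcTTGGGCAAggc
Mpo: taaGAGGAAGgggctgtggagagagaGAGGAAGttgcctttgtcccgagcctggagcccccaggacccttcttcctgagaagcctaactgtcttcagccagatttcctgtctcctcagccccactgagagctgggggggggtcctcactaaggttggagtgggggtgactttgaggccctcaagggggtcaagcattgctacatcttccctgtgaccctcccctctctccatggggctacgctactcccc
Elane: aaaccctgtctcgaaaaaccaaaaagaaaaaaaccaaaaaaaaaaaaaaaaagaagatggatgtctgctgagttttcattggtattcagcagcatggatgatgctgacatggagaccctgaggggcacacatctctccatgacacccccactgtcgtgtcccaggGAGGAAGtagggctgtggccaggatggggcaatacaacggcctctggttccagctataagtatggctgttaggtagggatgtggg
Ltf held 1 C/EBP match and Ngp held 2, Mpo held 2 PU.1 matches and Elane held 1, and none of the marked matches overlap. The RUNX letters TGTGGT, also searched on both strands, were in none of the 4 windows. Of 32851 RefSeq promoters cut to the same 250 bases, 9.56% held the C/EBP letters, 10.6% the PU.1 letters and 14.0% the RUNX letters. A match describes the letters only and is not a measured binding site.

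The arrays did not vary evenly. Tumor 2 at 72 h correlated with tumors 1 and 3 of its group at 0.951 and 0.957 over all probe sets, while tumors 1 and 3 correlated at 0.9925. The first principal component of the 6 arrays held 56.9% of their variance and placed this tumor at 116, against -53.1 to 43.9 for the other arrays. The labelled tissue was present in all 6 arrays: chromogranin B (Chgb), a secretory granule protein of neuroendocrine cells, lay between 14.29 and 17.54 and dopamine beta-hydroxylase (Dbh), an enzyme of noradrenaline synthesis, between 13.84 and 16.46, with the lowest value of each in tumor 2 at 72 h. Skeletal alpha-actin (Acta1), a muscle gene, lay between 18.75 and 19.82, so the samples also held muscle RNA. Single libraries are therefore named below wherever they carry a value.

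No probe set passed limma's adjusted p of 0.05 between 72 h and 48 h (0 of 22206, 0%), and the lowest adjusted p was 0.735. At an unadjusted p under 0.05 there were 1390 probe sets (6.26%). With a difference of at least 2-fold, 321 were higher at 72 h (1.45%) and 74 were lower (0.333%). After quantile normalization those counts were 260 and 112, and after median centring 267 and 130. All 3 arrays at 72 h lay above all 3 at 48 h for 1044 probe sets (4.7%) and below for 1494 (6.73%). After quantile normalization they were 1063 and 1321, and after median centring 742 and 2067. Over all probe sets, 10320 had a difference above 0 and 11840 below 0. These counts and shares are the background against which every count of list members below is read. All adjusted p-values of single genes given below are limma's with Benjamini-Hochberg adjustment.

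The probe sets that did not overlap were spread unevenly over signal. When the probe sets were ranked by mean signal and cut into 4 equal parts, 12.1% of the lowest part lay lower at 72 h without overlap and 2.29% higher. In the highest part, 2.58% lay lower and 6.12% higher. By the unadjusted 2-fold rule the parts, from the lowest up, held 12, 23, 25 and 14 lower calls. Higher calls were 14, 84, 147 and 76. The 25th percentile of signal was 3.60 to 3.63 on the 48 h arrays and 3.47 to 3.50 on the 72 h arrays, and the interquartile range was 5.16 to 5.21 against 5.43 to 5.49. The spread of values on the array thus moved with the groups. After quantile normalization, which gives all arrays the same spread, lower calls were 112 in place of 74 and higher calls 260 in place of 321. The part of the spread in single calls, higher or lower, was not tested.

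**Figure D1:**
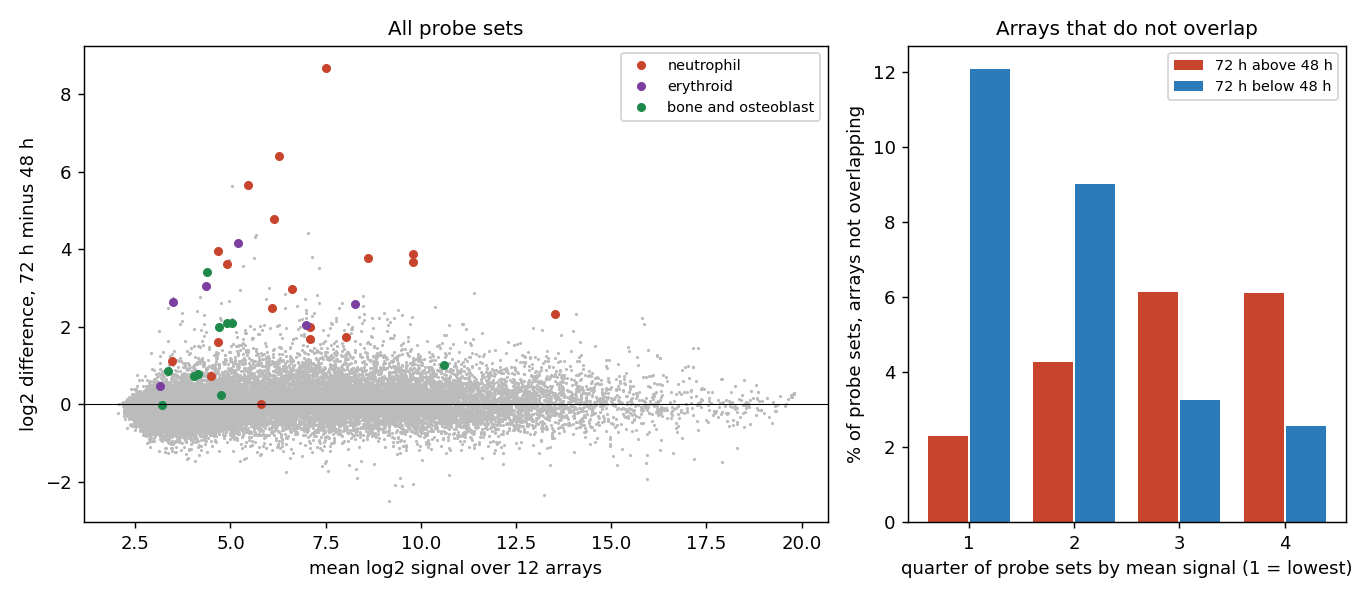
Left, the log2 difference 72 h minus 48 h of each probe set against its mean log2 signal over 12 arrays, with neutrophil, erythroid and bone genes in colour. Right, the percent of probe sets in each of 4 equal parts by mean signal whose 3 arrays at 72 h lay all above or all below those at 48 h. The coloured genes reach 8.69 (Ngp), and in part 1, the lowest, the share lying lower is 12.1%.

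Neutrophil genes were higher at 72 h by the unadjusted rule, among them genes of all 3 kinds of granule. Of 20 genes on the neutrophil list 19 were measured, 13 were higher at 72 h by the unadjusted rule, 0 were lower, and 8 did not overlap. The median difference of the 19 was 2.98, against -0.03 over all probe sets. Relative to the control mean, the list's median on the 48 h arrays was 0.94, 3.43 and 4.53, and on the 72 h arrays it was 5.33, 8.53 and 4.53. Tumor 3 at 48 h and tumor 3 at 72 h were level, and tumor 1 at 48 h was the lowest. In bulk tissue, more cells of a type and more RNA per cell cannot be told apart.

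Among the primary granule genes, Mpo (myeloperoxidase, which makes hypochlorous acid) read 3.61, 3.51 and 10.49 in tumors 1, 2 and 3 at 48 h and 11.55, 13.88 and 11.39 at 72 h. Tumors 1 and 2 at 48 h sat at the control level of 3.55 ± 0.01 (SD, n = 3), and tumor 3 alone was near the 72 h tumors. The difference was 6.40 ± 1.47 (SE), with an adjusted p of 0.735. Because the low values lie at the low end of the arrays' signal, no fold is given for Mpo or for the genes below that start from such a level. Elane (neutrophil elastase) read 4.31, 3.98 and 9.01 at 48 h and 9.32, 12.59 and 9.71 at 72 h. It had the same order, 2 low tumors and 1 high one at 48 h, with a difference of 4.77 ± 1.19 and an adjusted p of 0.735. Prtn3 (proteinase 3) differed by 1.60 ± 0.46, from 4.12 to 4.92 at 48 h to 5.26 to 7.33 at 72 h, without overlap.

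Secondary granule genes followed a similar order. Ngp (neutrophilic granule protein) read 3.43, 4.79 and 13.25 at 48 h and 15.76, 17.65 and 14.14 at 72 h. Its untreated level was 3.07 ± 0.06 (SD, n = 3), and tumor 3 at 48 h stood just below the lowest 72 h tumor. The difference was 8.69 ± 1.94 (SE), with an adjusted p of 0.735. Ltf (lactoferrin, an iron-binding protein) read 4.12, 3.92 and 6.62 at 48 h and 10.13, 13.03 and 8.46 at 72 h. For Ltf all 3 tumors at 48 h were well below the 72 h tumors, and its difference of 5.65 ± 0.97 had the lowest unadjusted p of the list, 0.000103, and an adjusted p of 0.735. Camp (the cathelicidin antimicrobial peptide) read 3.23, 2.80 and 7.37 at 48 h and 7.60, 11.57 and 6.09 at 72 h, so tumor 3 at 48 h exceeded tumor 3 at 72 h, with a difference of 3.95 ± 1.32. Cd177, a surface antigen of neutrophils that is on none of the lists and was chosen after its values were seen, differed by 3.71 ± 0.88 without overlap. Lcn2 (lipocalin 2, which binds bacterial siderophores) read 14.29, 15.76 and 15.28 at 48 h and 17.55, 18.81 and 15.95 at 72 h. It was already far above the untreated 7.02 ± 0.92 (SD, n = 3) at 48 h, by 8.09 with limma's adjusted p of 0.00512, and at 72 h, by 10.41 with 0.000348, while the step between the times was 2.33 ± 0.74 with 0.745.

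Of the later granule and cytosolic genes, Mmp8, S100a8 and S100a9 lay above all untreated tumors in every 48 h tumor. Mmp9 (gelatinase B) read 3.06, 5.82 and 4.58 at 48 h and 6.82, 10.70 and 6.84 at 72 h, without overlap, a difference of 3.63 ± 0.99. Mmp8 (neutrophil collagenase) read 5.60, 7.46 and 8.82 and then 10.22, 12.08 and 8.51, a difference of 2.98 ± 1.10 in which tumor 3 at 48 h exceeded tumor 3 at 72 h. The calprotectin subunits S100a8 and S100a9, the most abundant cytosolic proteins of neutrophils, had similar differences. S100a8 read 7.49, 10.16 and 12.80 at 48 h and 12.90, 16.51 and 12.38 at 72 h, against 2.85 ± 0.37 (SD, n = 3) untreated, a difference of 3.78 ± 1.65 between the times. With the replicate number as a block, limma's unadjusted p for S100a8 was 0.0625 in place of 0.0415, so the call ended. S100a9 read 8.16, 11.54 and 12.91 and then 13.89, 16.95 and 13.39, a difference of 3.87 ± 1.38. Tumor 1 at 48 h was the lowest array for both. Chil3, a chitinase-like secreted protein, differed by 2.49 ± 0.90 and Padi4, which citrullinates histones, by 1.13 ± 0.48, and the adjusted p of these 6 genes lay between 0.738 and 0.773.

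The receptor genes Csf3r, Cxcr2 and Il1r2 did not pass the rule in the fit to all 12 arrays. Csf3r (the G-CSF receptor) read 7.40, 10.80 and 7.06 at 48 h and 8.71, 12.46 and 9.31 at 72 h, a difference of 1.74 ± 1.19. Cxcr2 (a chemokine receptor) read 5.67, 9.90 and 6.43 and then 8.04, 10.92 and 8.12, a difference of 1.69 ± 1.15. Il1r2 (the decoy receptor of interleukin 1) read 5.65, 9.03 and 4.81 and then 5.05, 7.19 and 7.30, a difference of 0.02 ± 0.97 that turned to -0.11 after quantile normalization and -0.062 after median centring. In these 3 genes tumor 2, not tumor 3, was the high one at 48 h. The unadjusted p-values were 0.172, 0.170 and 0.987, and whether these genes differed less than the granule genes was not tested. Retnlg, a resistin-like protein of neutrophils, differed by 3.68 ± 1.72 with an unadjusted p of 0.0550. Pairing the tumors by number changed these calls: with the replicate block and only the 6 arrays in the fit, the difference of Csf3r was 1.74 ± 0.28, of Cxcr2 1.69 ± 0.31 and of Retnlg 3.68 ± 0.99. Their unadjusted p-values in limma were then 0.000294, 0.000723 and 0.00641, and 17 of the 19 list members were higher by the unadjusted rule. This fit was chosen after seeing that same-numbered arrays deviated together, so its smaller SEs are no separate evidence. With the block and all 12 arrays, Csf3r, Cxcr2 and Retnlg did not pass.

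Single libraries set the size of the neutrophil difference. Without tumor 2 at 72 h the member count was 7 and without tumor 1 at 48 h it was 8, in place of 13. Without tumor 3 at 48 h the difference was 11.74 ± 0.84 for Ngp and 8.71 ± 0.61 for Mpo, both with limma's adjusted p of 0.000597, and these were the only 2 probe sets in the comparison that passed under that alternative.

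**Figure D2:**
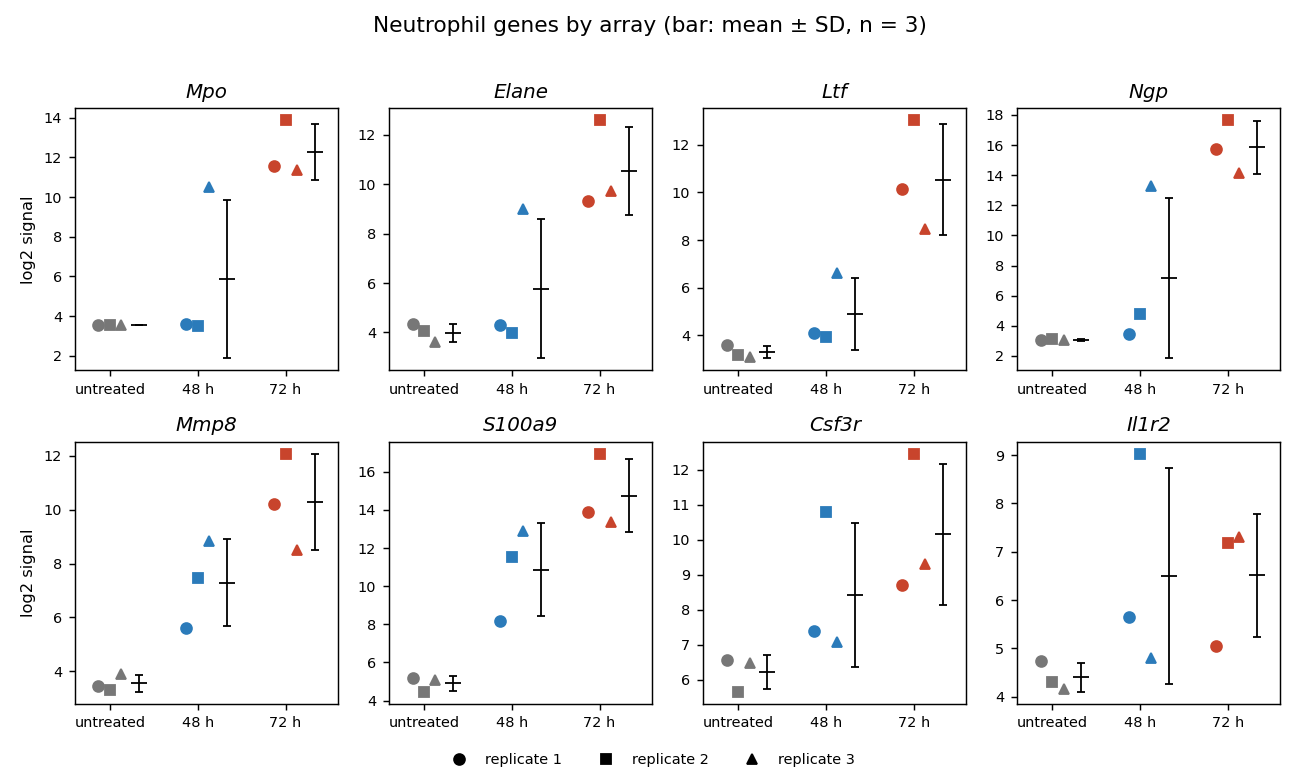
Log2 signal of 8 neutrophil genes in untreated, 48 h and 72 h tumors, 1 symbol per array, shaped by replicate number, with the mean ± SD (n = 3) beside each group. For Mpo, Elane, Ltf and Ngp tumors 1 and 2 at 48 h stay low (3.43 to 4.79) and tumor 3 is higher. For Csf3r and Il1r2 tumor 2 is the high array at 48 h.

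Red cell genes followed the same arrays. Of 13 erythroid genes listed 6 were measured, 4 were higher at 72 h by the unadjusted rule, 2 did not overlap, and the median difference was 2.62. The list's median relative to control was 0.32, 0.48 and 2.72 at 48 h and 3.04, 6.29 and 2.18 at 72 h. Rhag (the Rh-associated glycoprotein of the red cell membrane) read 3.17, 3.19 and 8.05 at 48 h and 8.61, 11.21 and 7.06 at 72 h, with an untreated level of 3.41 ± 0.43 (SD, n = 3). Tumor 3 at 48 h was above tumor 3 at 72 h, and the difference was 4.16 ± 1.22. Slc4a1 (band 3, the anion exchanger) read 7.43, 7.37 and 10.62 and then 9.95, 13.66 and 9.59, a difference of 2.59 ± 1.07. Ermap, an erythroid membrane protein, at 3.06 ± 0.87 and Epb42 (protein 4.2) at 2.65 ± 0.84 did not overlap, though Epb42 lies among the 25% of probe sets with the lowest signal. Alas2, the erythroid enzyme that starts haem synthesis, differed by 2.06 ± 1.14 and the erythroid transcription factor Klf1 by 0.48 ± 0.28, and neither passed the rule.

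Of 7 platelet genes measured, 2 were higher by the unadjusted rule, with a median difference of 1.01. Without overlap, 0 lay higher and 1 lay lower. The lower one was Treml1, which read 4.07, 4.18 and 4.47 at 48 h and 3.54, 3.73 and 3.92 at 72 h. Its difference of -0.51 ± 0.25 did not pass. Ppbp (a chemokine precursor stored in platelets) read 5.77, 5.90 and 10.93 at 48 h and 11.23, 13.15 and 9.64 at 72 h, a difference of 3.81 ± 1.29 in which tumor 3 at 48 h again overlapped the 72 h tumors. Gp9 (part of the von Willebrand factor receptor) read 5.74, 5.92 and 6.25 and then 7.56, 7.27 and 6.15, a difference of 1.02 ± 0.36. Jchain, the chain that joins secreted antibodies and a marker of plasma cells, read 3.74, 3.92 and 5.94 and then 6.98, 9.78 and 4.84, a difference of 2.67 ± 1.12. It was the only one of 10 B cell genes measured that passed, and with the replicate block limma's unadjusted p was 0.0569 in place of 0.0358. The adjusted p of the called platelet, plasma cell and erythroid genes lay between 0.738 and 0.772.

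Some genes of bone were higher at 72 h as well. Relative to control, the median of the bone list was -0.12, -0.36 and 0.31 at 48 h and 0.74, 2.61 and 0.11 at 72 h. Tumor 3 at 72 h thus lay below tumor 3 at 48 h, and tumor 2 at 72 h was the highest. Of 11 genes listed 10 were measured, 4 were higher by the unadjusted rule, 5 did not overlap, and the median difference was 0.93. The count was 2 with array weights, with only the 6 arrays in the fit, and without tumor 1 at 48 h, tumor 2 at 48 h or tumor 2 at 72 h. Ibsp (bone sialoprotein, a mineral-binding matrix protein) read 3.40, 3.86 and 5.47 at 48 h and 7.14, 9.05 and 6.75 at 72 h, against 2.72 ± 0.12 (SD, n = 3) untreated. No array overlapped, and the difference was 3.40 ± 0.59, with an adjusted p of 0.735. Against untreated tumors Ibsp was higher at 72 h by 4.93 with limma's adjusted p of 0.0375, and its difference at 48 h was 1.53 with 0.310. Dmp1 (dentin matrix protein, made by osteocytes) read 3.57, 4.29 and 5.40 and then 5.66, 8.41 and 5.46, a difference of 2.09 ± 0.72.

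Bglap (osteocalcin, the hormone-like matrix protein of osteoblasts) read 4.33, 3.39 and 4.37 at 48 h and 5.10, 8.33 and 4.62 at 72 h, a difference of 1.99 ± 0.76. Tumor 2 at 72 h stood far above the rest, and without it the difference was 0.83. Bglap2 at 2.09 ± 0.82 is a near-identical gene copy, so the 2 probe sets may share signal and are not separate evidence. Mepe, a phosphoprotein of osteocytes, at 0.77 ± 0.27 did not overlap but was under 2-fold. Alpl (alkaline phosphatase) at 0.85 ± 0.36 and Sp7 (the osteoblast transcription factor osterix) at 0.72 ± 0.33 were also under 2-fold. Col1a1, the main collagen of bone and of scar, read 11.23, 14.12 and 9.17 and then 10.62, 14.39 and 12.52, a difference of 1.00 ± 1.47 that was within the spread.

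Osteoclasts, which resorb bone, were represented by 9 measured genes. Of these, 7 had a difference above 0 and 2 below 0, with a median of 0.32. Relative to control, the list's median was 0.14, 0.42 and 0.46 at 48 h and 0.88, 0.79 and 0.45 at 72 h. Tumor 3 at 72 h thus lay within the range of the 48 h tumors. By the unadjusted rule 3 of the 9 were higher, and these 3 did not overlap. Among them was Mmp9, which is also on the neutrophil list and is given above. Acp5 (tartrate-resistant acid phosphatase) read 7.29, 8.35 and 9.45 at 48 h and 9.69, 12.04 and 9.88 at 72 h, a difference of 2.17 ± 0.66. Atp6v0d2 (a proton pump subunit of osteoclasts) read 5.10, 5.19 and 6.73 and then 7.87, 10.37 and 7.33, a difference of 2.85 ± 0.87. The untreated level was 8.70 ± 0.78 (SD, n = 3) for Acp5, above its 48 h mean of 8.36, and 5.35 ± 1.16 for Atp6v0d2. Against untreated tumors the differences at 72 h were 1.84 and 3.17, with limma's adjusted p of 0.353 and 0.290. Ctsk, the collagen-cutting cathepsin K, differed by 1.30 ± 0.75 and did not pass. Of 8 cartilage genes 1 passed: Comp (cartilage oligomeric matrix protein) read 3.83, 4.07 and 4.41 and then 5.48, 7.86 and 5.68, a difference of 2.24 ± 0.53. Untreated tumors read 4.06 ± 0.52 (SD, n = 3) for Comp, the level of the 48 h tumors.

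Matrix enzymes overlapped with these lists. Of 16 genes measured 4 were higher: Mmp9 and Mmp8, given above, Mmp13 and Timp3. Mmp13 (collagenase 3, made by osteoblasts and hypertrophic cartilage among other cells) read 7.13, 6.34 and 7.84 at 48 h and 9.21, 11.09 and 8.66 at 72 h. The untreated level of 8.61 ± 1.84 (SD, n = 3) lay between them, and the difference was 2.55 ± 0.84. Timp3, an inhibitor of these enzymes, read 4.49, 4.91 and 5.14 and then 5.72, 7.40 and 5.94, a difference of 1.51 ± 0.57, with both groups under the untreated 7.29 ± 1.25 (SD, n = 3). The adjusted p of the called bone, osteoclast, cartilage and matrix genes lay between 0.735 and 0.748.

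Without tumor 2 at 72 h the differences were 4.41 for Ltf, 7.79 for Ngp, 5.60 for Mpo, 3.03 for Rhag, 2.70 for Ibsp, 1.42 for Acp5 and 1.48 for Comp. Each of these was smaller than with all arrays and kept its direction. Of 64 called genes named in the text, 20 had a difference smaller by over 1.5 times without that tumor. Besides Acp5 and Comp, Camp was at 2.38, Mmp9 at 2.34, Ermap at 1.83, Epb42 at 1.42 and Dmp1 at 1.14, all still called. Prtn3 at 0.95, S100a8 at 2.49, Padi4 at 0.45, Slc4a1 at 1.30, Jchain at 1.38, Bglap at 0.83, Bglap2 at 0.85 and Timp3 at 0.98 were no longer called. Without tumor 1 at 48 h, S100a8 at 2.45, S100a9 at 2.52 and Chil3 at 1.50 were no longer called either. Without tumor 3 at 48 h they were 6.52 for Ltf, 5.78 for Rhag, 4.02 for Ibsp, 2.72 for Acp5 and 2.39 for Comp, each larger.

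**Figure D3:**
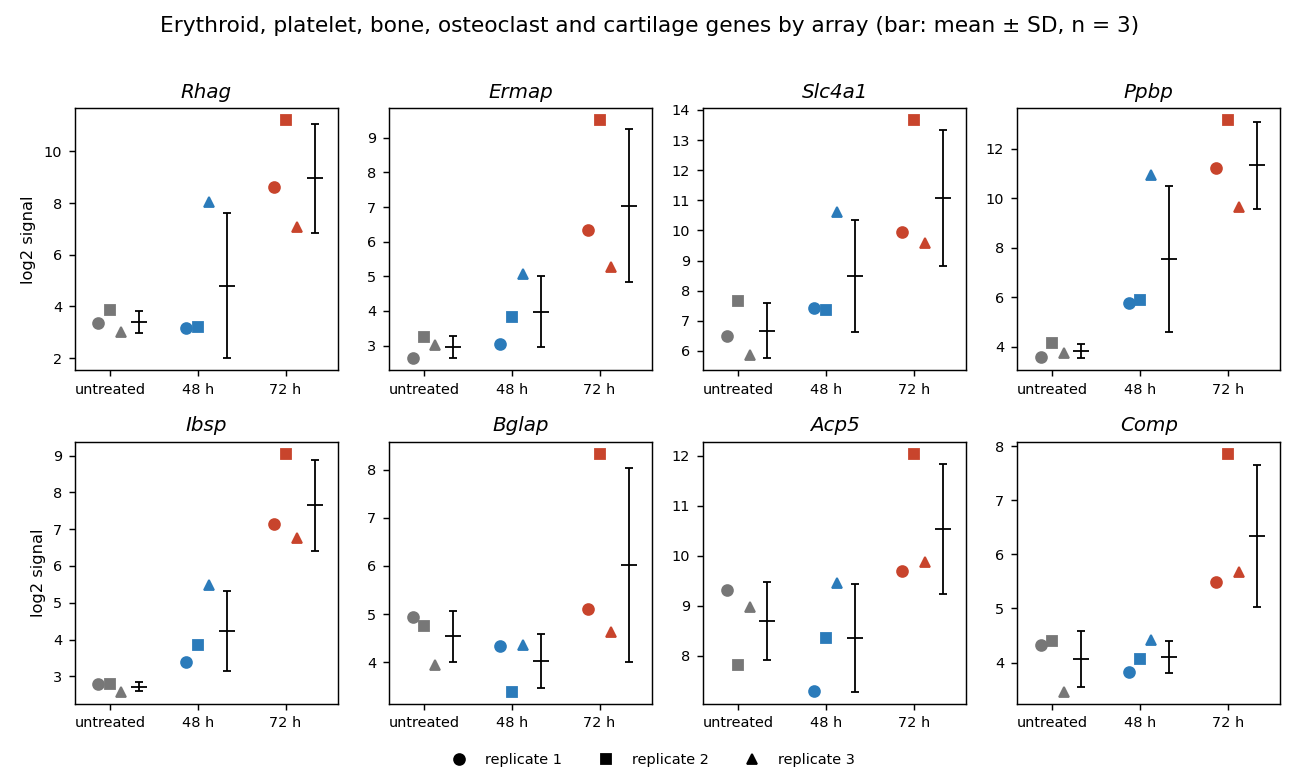
Log2 signal of 3 red cell genes, 1 platelet gene and 4 genes of bone, osteoclasts and cartilage in untreated, 48 h and 72 h tumors, 1 symbol per array, with the mean ± SD (n = 3). Tumor 2 at 72 h is the highest array in all 8 panels. In Rhag, Slc4a1 and Ppbp tumor 3 at 48 h lies within the range of the 72 h tumors.

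After Ltf and Ibsp, most of the 12 genes named by p-value as higher at 72 h were on none of the marrow, bone or matrix lists. Max, the partner of Myc proteins on DNA, read 10.20, 10.28 and 9.85 at 48 h and 11.20, 11.35 and 11.60 at 72 h, a difference of 1.27 ± 0.23 with an adjusted p of 0.735. The untreated level of 10.92 ± 0.21 (SD, n = 3) lay between the groups. Med15, a Mediator subunit, read 10.87, 11.14 and 10.48 and then 11.97, 11.90 and 11.89, a difference of 1.09 ± 0.23. Its 3 tumors at 72 h had an SD of 0.04. Mrtfa, an actin-regulated coactivator, at 1.40 ± 0.26, Arhgef1 at 1.24 ± 0.28, and Coro7, a coronin of the Golgi, at 1.17 ± 0.26 also did not overlap. So did the mitochondrial ribosome gene Mrps22 at 1.18 ± 0.24 and Pigq, an enzyme of GPI anchor synthesis, at 1.93 ± 0.38.

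Vcam1, an adhesion molecule on which leukocytes settle, read 5.82, 8.17 and 7.56 at 48 h and 9.36, 10.46 and 9.57 at 72 h. The 72 h tumors were tight and above the untreated 7.79 ± 0.24 (SD, n = 3), and the difference was 2.61 ± 0.51, 6.12-fold, with an adjusted p of 0.735. E2f2, a transcription factor of the cell cycle that is abundant in red cell precursors, read 9.23, 7.94 and 9.99 and then 11.12, 11.95 and 10.86, a difference of 2.26 ± 0.44. Without tumor 2 at 72 h the difference of Vcam1 was 2.28.

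Cell division genes lay mostly above 0 with 1 call. Of 21 mitosis genes measured 18 had a difference above 0, 3 did not overlap, and 1 passed the 2-fold rule, with a median of 0.31. Relative to control the list's median was -0.18, -0.88 and -0.35 at 48 h and 0.30, -0.67 and 0.12 at 72 h. Tumor 2 at 72 h thus lay below tumors 1 and 3 at 48 h. Mki67 (the proliferation antigen Ki-67) read 15.48, 14.75 and 15.39 at 48 h and 16.42, 15.88 and 15.76 at 72 h, against 15.26 ± 0.01 (SD, n = 3) untreated. Its arrays did not overlap, at a difference of 0.81 ± 0.29 and an adjusted p of 0.746. Ccna2 (cyclin A2) differed by 1.06 ± 0.41, Ccnb2 (cyclin B2) by 0.70 ± 0.25 and Kif11, a spindle motor, by 0.71 ± 0.27. None of 20 DNA replication genes passed, with a median of 0.16.

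Interferon genes lay above 0 with few calls. All 23 antiviral genes measured had a difference above 0, with a median of 0.93, but 1 passed the unadjusted rule and 1 did not overlap. On the 48 h arrays the list's median relative to control was -2.43, -1.36 and -1.74, and at 72 h it was -1.84, 0.17 and -1.34, so tumor 2 at 72 h was the one array near the untreated level. Irf7, the regulator that amplifies type I interferon, read 5.38, 7.51 and 5.85 and then 6.94, 11.70 and 7.98, a difference of 2.63 ± 1.10, or 1.21 without tumor 2 at 72 h. Of 18 genes induced by interferon gamma 0 passed, with a median of 0.87. The chemokines Cxcl9 and Cxcl10, which attract T cells, differed by 1.89 ± 1.21 and 1.31 ± 0.72 and did not pass. With the replicate block and only the 6 arrays, a fit chosen after seeing the data, both passed. Their unadjusted p-values in limma were then 0.00393 and 0.0149.

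Antigen presentation genes gave 1 call in each class. Tapbp (tapasin, which loads peptide on MHC class I) read 10.56, 10.86 and 11.45 at 48 h and 11.88, 12.58 and 12.32 at 72 h, a difference of 1.30 ± 0.36 without overlap. Untreated tumors read 12.38 ± 0.69 (SD, n = 3), near the 72 h level. It was the 1 of 15 MHC class I genes that passed, with a list median of 0.30, and the class I heavy chain H2-K1 differed by 0.42 ± 0.34. H2-Eb1, a class II chain, differed by 1.09 ± 0.45 and was the 1 of 10 class II genes that passed, with 0.63 and no call without tumor 1 at 48 h. Of 14 checkpoint genes 1 passed, Lgals9 (galectin 9), at 1.62 ± 0.63 (1.04 and not called without tumor 2 at 72 h), while Cd274 (PD-L1) differed by 0.21 ± 0.87.

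Lymphocyte genes showed no calls beyond Jchain. None of 11 T cell and none of 14 cytotoxic and NK cell genes passed, with medians of 0.10 and 0.06. Cd8a, the coreceptor of cytotoxic T cells, read 3.23, 3.93 and 4.40 at 48 h and 3.29, 3.91 and 4.31 at 72 h, close to the low end of the array's signal, and its difference of -0.02 ± 0.39 turned to 0.10 after quantile normalization. Ifng differed by 0.56 ± 0.38 and Gzmb (granzyme B) by -0.58 ± 0.63. Cd72, a receptor of B cells, read 7.06, 9.43 and 8.27 and then 9.85, 10.15 and 9.47 without overlap, a difference of 1.57 ± 0.76, below the untreated 12.72 ± 1.68 (SD, n = 3) at both times. It did not pass. With the replicate block and only the 6 arrays, a fit chosen after seeing the data, Cd72 passed at limma's unadjusted p of 0.00471.

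Macrophage genes followed tumor 2 at both times. All 14 measured had a difference above 0, with a median of 1.02, yet 0 passed. The list's median relative to control was -0.54, 1.57 and -0.83 at 48 h and 0.50, 3.09 and 1.11 at 72 h. Arg1 (arginase 1) read 8.56, 11.94 and 5.52 and then 7.39, 10.22 and 8.37, a difference of -0.01 ± 1.51, and Hmox1 (haem oxygenase) differed by 0.14 ± 1.21. Il1b, read at 7.61, 10.45 and 5.31 and then 6.48, 8.75 and 9.94, differed by 0.60 ± 1.33. The 48 h tumors were so unlike in these 3 genes that a difference of several-fold could not be told from their spread. Il18 was the 1 of 17 cytokines that passed, at 1.74 ± 0.65, or 0.93 without tumor 2 at 72 h. The 15 collagen and fibroblast genes measured all had a difference above 0, with a median of 0.57 and 0 calls.

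The 12 genes named by p-value as lower at 72 h were of varied kinds. Ugp2, which makes UDP-glucose for glycogen, read 15.22, 14.22 and 14.13 at 48 h and 12.21, 13.79 and 12.87 at 72 h. The untreated level was 12.24 ± 0.42 (SD, n = 3), near the 72 h tumors, and the difference was -1.57 ± 0.47 with an adjusted p of 0.744. Spryd7 read 10.53, 10.06 and 9.65 and then 8.84, 8.55 and 9.09, a difference of -1.25 ± 0.34. Ctla2a, related to the propeptide of cathepsins, read 13.89, 13.83 and 13.35 and then 12.84, 11.91 and 12.99, a difference of -1.11 ± 0.31. These 3 were the ones of the 12 with a mean above 8 at both times.

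The other 9 had lower signals. Gdf9, an oocyte growth factor, read 6.65, 6.14 and 6.68 at 48 h and 5.09, 5.21 and 5.49 at 72 h, a difference of -1.23 ± 0.25. Dnal4 and Cfap44, parts of motile cilia, differed by -1.23 ± 0.30 and -1.35 ± 0.40, Bst1, an ectoenzyme of leukocyte and stromal surfaces, by -1.08 ± 0.28, the sialidase Neu4 by -1.04 ± 0.27 and Mrps26 by -1.22 ± 0.34. Zbbx at -1.0 ± 0.27, Btbd35f8 at -1.19 ± 0.32 and the olfactory receptor Olfr340 at -1.41 ± 0.42 had means under 5 in both groups. They lie in the second lowest of the 4 parts by signal, where the median difference was -0.06. There 9.01% of probe sets lay lower and 4.27% higher without overlap, while the unadjusted 2-fold rule gave 23 lower and 84 higher. The part of the signal level in these calls was not tested.

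Muscle stress genes were lower in part. Of 12 atrophy genes 2 were lower, 0 were higher and 0 were without overlap. By sign, 7 had a difference below 0 and 5 above, among the latter Mstn at 1.06 ± 1.28 and Cdkn1a at 1.03 ± 0.61. Relative to control, the list's median was 1.20, 1.48 and 0.71 at 48 h and 0.86, 2.81 and 0.93 at 72 h. Fbxo32 (atrogin-1, a ubiquitin ligase of wasting muscle) read 11.60, 9.75 and 11.96 at 48 h and 7.80, 10.40 and 8.93 at 72 h, against 6.68 ± 0.22 (SD, n = 3) untreated. Tumors 1 and 3 at 72 h were below all 48 h tumors, tumor 2 at 72 h was within their range, and the difference was -2.06 ± 0.72 with an adjusted p of 0.746. Retreg1, a receptor for removal of endoplasmic reticulum, differed by -1.53 ± 0.60, or -0.98 and not called without tumor 3 at 48 h. Trim63 (MuRF1, the partner ligase) at -1.82 ± 0.93 and Pdk4, which holds back glucose oxidation, at -0.82 ± 0.66 did not pass. The 20 muscle fibre genes had a median difference of -0.08 and 0 calls, and Acta1 differed by -0.11 ± 0.56. In tumor 2 at 48 h, Acta1, Myh4 and Myl1 each read 19.51, the highest value on that array. Differences of genes so near the top of the signal may be understated, so they do not show that muscle RNA was unchanged. The atrophy genes had a median of -0.22, and the difference between the lists was not tested.

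The metal-binding Mt1 read 17.97, 19.18 and 18.00 at 48 h and 15.74, 18.08 and 17.10 at 72 h, a difference of -1.41 ± 0.57, or -0.79 and not called without tumor 1 at 72 h. Mt2 differed by -1.18 ± 0.79 without passing. Both stayed above the untreated 14.37 ± 0.33 and 12.90 ± 0.77 (SD, n = 3). Mt1 was the 1 lower call among 16 haem, iron and oxidative stress genes and among 14 glucocorticoid targets, a list in which Lcn2 and Per1 were higher and Fkbp5 differed by -0.30 ± 0.35. Among 13 heat shock genes, 11 had a difference below 0. The cochaperone Bag3 was higher by 1.67 ± 0.61, at 11.16, 9.76 and 10.32 and then 12.05, 11.26 and 12.95, and Hspb1 at -1.71 ± 0.86 did not overlap and did not pass. Both Mt2 and Hspb1 passed with the replicate block and only the 6 arrays, a fit chosen after seeing the data. Their unadjusted p-values in limma were then 0.0166 and 0.0112.

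**Figure D4:**
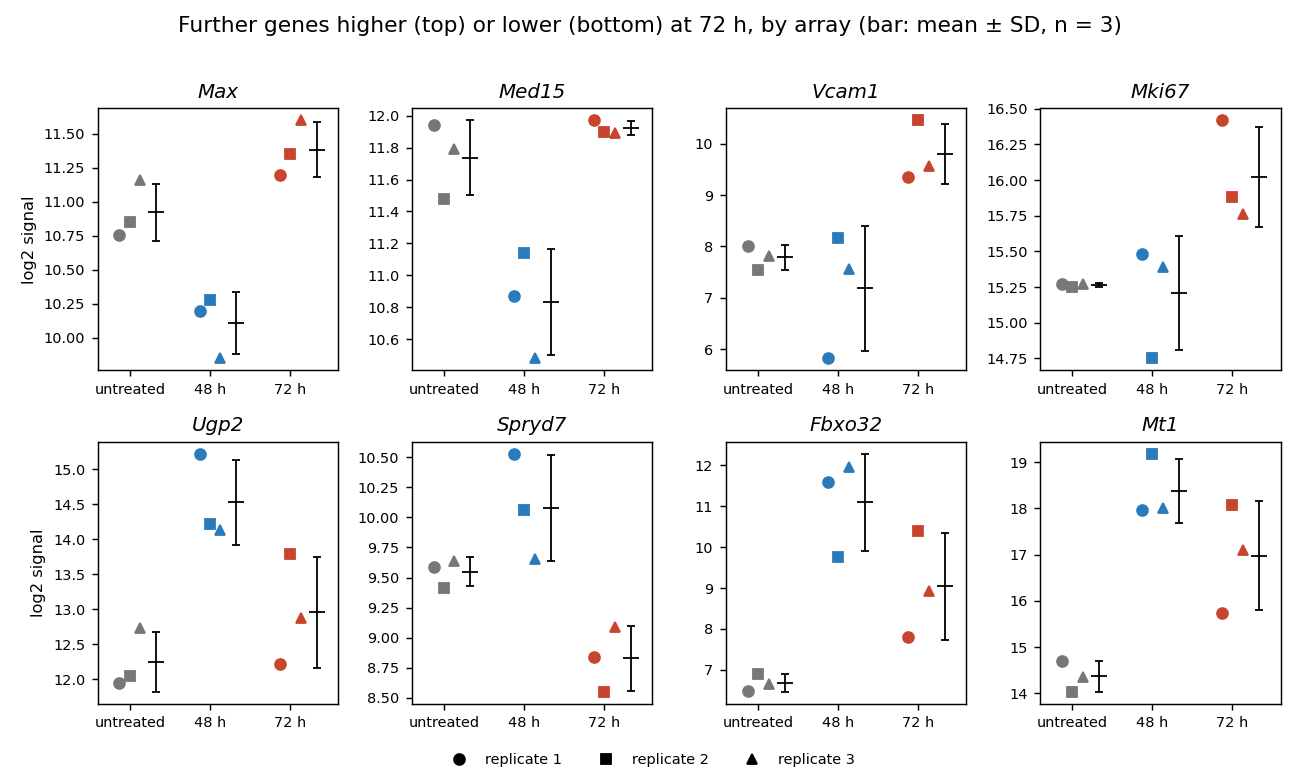
Log2 signal of 4 genes higher (top) and 4 genes lower (bottom) at 72 h in untreated, 48 h and 72 h tumors, 1 symbol per array, with the mean ± SD (n = 3). For Max and Med15 the arrays are tight and the groups apart, and for Fbxo32 tumor 2 at 72 h (10.40) lies above tumor 2 at 48 h (9.75).

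Among transcription factors of rapid response, Egr2 read 6.83, 6.61 and 6.59 at 48 h and 7.28, 8.10 and 7.66 at 72 h, a difference of 1.00 ± 0.26, and was the 1 of 17 immediate-early genes that passed. Egr3 differed by -0.72 ± 0.23 without overlap in 1 probe set and by 0.02 and 0.06 in its others. Of 16 clock genes 1 passed. Per1 read 5.66, 6.10 and 6.93 and then 7.05, 8.63 and 7.12, a difference of 1.37 ± 0.58, or 0.86 and not called without tumor 2 at 72 h. Per3 differed by 0.95 ± 0.39, and both Per genes, which repress the clock, lay higher without overlap. Clock, the activator they act on, differed by -0.45 ± 0.20 and Ciart, another repressor, by -0.77 ± 0.39, and both lay lower without overlap. The sources used here do not state the hour of day at sampling, and its part in the clock genes was not tested.

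Tumor cell genes did not differ by any rule. Of 20 neuroblastoma and chromaffin genes listed 17 were measured, 0 were called, 0 were without overlap, and the median difference was -0.31. The list's median relative to control lay between -0.29 and 0.39 on 5 arrays and was -1.52 in tumor 2 at 72 h. That array had the highest medians of the neutrophil, erythroid and bone lists. It also had the highest for muscle fibre (5.82), fibroblast and collagen (3.85) and adipocyte genes (2.50). The osteoclast median was 0.79 there and 0.88 in tumor 1 at 72 h. Th (tyrosine hydroxylase, the first enzyme of catecholamine synthesis) read 13.16, 11.12 and 13.27 at 48 h and 12.27, 10.46 and 13.32 at 72 h, a difference of -0.50 ± 0.93. Mycn, the neuroblastoma oncogene, differed by -0.67 ± 0.66. The muscle regulator Myog differed by 0.52 ± 0.66, and 1 of 13 muscle regeneration genes passed, Mymk (myomaker), at 1.32, or 0.58 and not called without tumor 2 at 72 h. The 8 housekeeping genes measured had a median of 0.23 and 0 calls, with 6 above 0. In the remaining 20 of 50 lists, with 254 members measured, 1 member was higher and 0 were lower by the unadjusted rule, and the medians lay between -0.31 and 0.66.

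**Figure D5:**
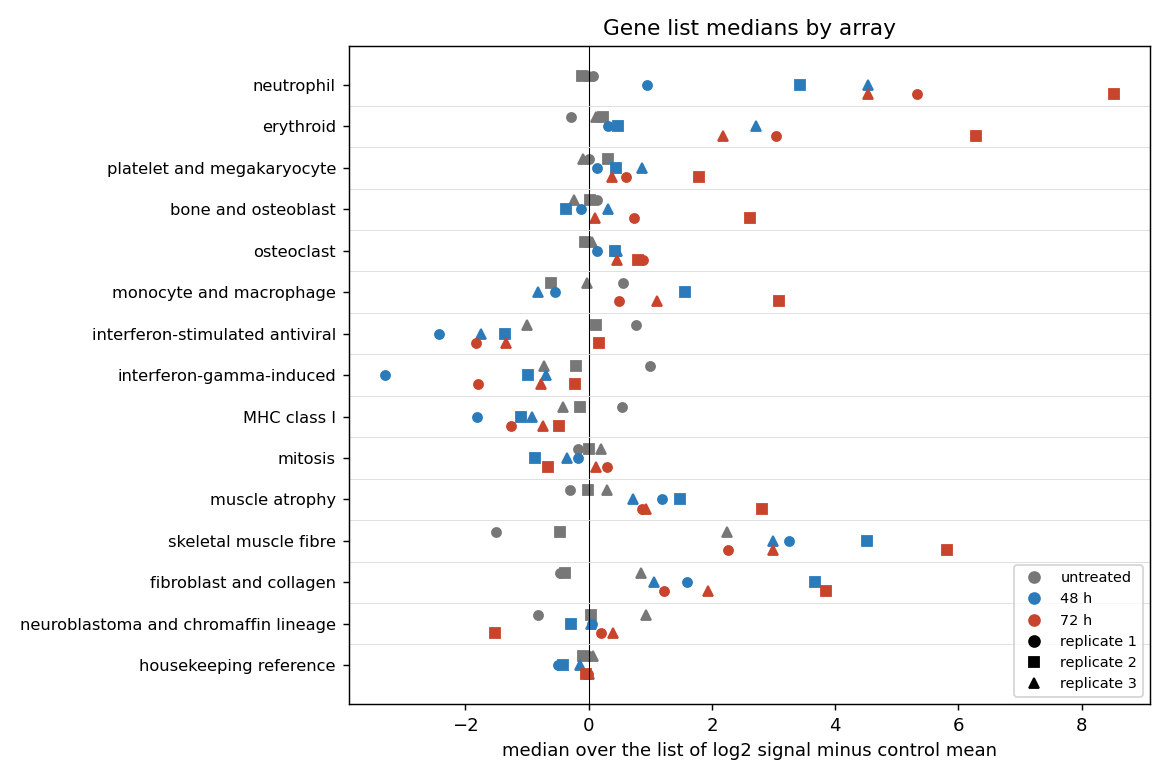
Median over each of 15 gene lists of log2 signal minus the control mean, 1 symbol per array, coloured by group and shaped by replicate number. In the neutrophil row the 72 h arrays lie at 4.53 to 8.53 and the 48 h arrays at 0.94 to 4.53. Tumor 2 at 72 h is the rightmost array for neutrophil, erythroid, platelet, bone, macrophage, muscle atrophy, muscle fibre and fibroblast genes. It is the leftmost for neuroblastoma genes.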

How the data were processed

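The authors deposited 1 table of log2 signals per probe set measured on Clariom S mouse arrays, each hybridized with 1 tumor, with values from 1.75 to 19.93. The log2 scale was read from the range of the values. The submitters' processing notes name Transcriptome Analysis Console 4.0; background correction, summarization and genome build were not given in the sources used here. No further scaling was applied. The precision is limited by the number of arrays, 3 in each group. Of the probe sets, 19572 had 1 gene symbol in the platform annotation and 2634 had none.

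Limma 3.58.1 in R 4.3.3 (lmFit, eBayes) fitted 1 mean per group to all 12 arrays. The contrast was 72 h minus 48 h, two-sided, with Benjamini-Hochberg adjustment over 22206 probe sets. Promoter windows and figures used Python 3.11.15 and matplotlib 3.10.9. The members and the 50 gene lists were chosen with earlier results of these data known. A list was described by its counts and median only, each gene standing by its probe set of highest mean. Named genes were the first 12 per direction by p among those not overlapping, at least 2-fold apart and above the lowest 25% of signal, with predicted genes left out, up to 4 members of a described list by p, and genes of interest; others, such as Ctsk, Klf1 and the further neutrophil and bone genes, were added with their values known to complete a list.

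Simulated data with this contrast held 22206 probe sets and changes of 1, 2, 4 and 6 log2 units. The fit found 14%, 56%, 90% and 100% of these changes, in that order, with 5 false calls among 22006 unchanged probe sets. In the deposited data Ngp differed by 8.69 and Mpo by 6.40, and neither passed, with limma's adjusted p of 0.735 for both. The SD of Ngp was 0.06 in control tumors and 5.32 at 48 h. Whether the percentages hold for genes with so unequal a spread was not tested. Same-numbered tumors at 48 h and 72 h deviated together from their group means (correlations 0.37, 0.62 and 0.23), so a fit with the replicate number as a block was run. The pairing comes from the data, not from the labels, and tumor 1 at 48 h correlated as highly with tumor 3 at 72 h (0.38). Same-numbered tumors ran opposite between 24 h and 48 h (-0.20, -0.61 and -0.25) and between 24 h and 72 h (-0.57, -0.61 and -0.17). The other alternatives were a filter on low signal, quantile normalization, median centring, an intensity trend, array weights, only the 6 arrays, only named probe sets, and leaving out each array.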

Additional observations from a re-analysis of the deposited data

Results flagged for a closer look

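For 13 named genes the 3 tumors at 48 h lay all on one side of the control mean and the 3 at 72 h all on the other. Whether the 2 differences from control differ was not tested beyond the comparison of the times itself. Over all probe sets this pattern held for 173 with 48 h below and 72 h above (0.779%) and for 326 the other way (1.47%). Most of the 13 were named because their arrays did not overlap between the times and were at least 2-fold apart. The 13 therefore cannot be read against these shares. The pattern uses only the control mean, and single untreated tumors ran from 7.02 to 10.62 for Mmp13 and from 3.94 to 4.94 for Bglap. With 48 h below and 72 h above, the log2 differences between the times were 2.55 for Mmp13, 1.99 for Bglap, 1.40 for Mrtfa, 1.27 for Max, 1.24 for Arhgef1, 1.09 for Med15, 1.00 for Egr2 and 0.70 for Ccnb2. With 48 h above and 72 h below, they were -1.0 for Zbbx, -1.19 for Btbd35f8, -1.22 for Mrps26, -1.23 for Gdf9 and -1.25 for Spryd7. The untreated level for Mmp13 was 8.61, with 7.10 at 48 h and 9.65 at 72 h, and for Spryd7 it was 9.55, with 10.08 and 8.83.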

How the results depend on the processing

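With 3 tumors per group the fit seldom finds changes of 2-fold, and leaving out 1 array changed most counts. No probe set passed the adjusted p under any of the 8 alternative settings, or with the replicate block and only the 6 arrays, an alternative chosen after seeing the data. When each array was left out in turn, 0 to 2 passed, all higher. The unadjusted counts were 299 higher and 66 lower with the replicate block, which ended the unadjusted calls of S100a8 and Jchain and changed none of the other calls among the 102 genes examined. Leaving out 1 array gave 202 to 590 higher and 72 to 212 lower. With the replicate block and only the 6 arrays compared, they were 670 and 142. The lower count was 112 after quantile normalization, 130 after median centring and 132 with array weights. Leaving out 1 array gave 1639 to 2895 probe sets without overlap that were higher and 2352 to 3230 that were lower, since fewer arrays overlap less often; without the lowest 25% of probe sets 824 were lower. Leaving out 1 array gave 7 to 16 neutrophil members and 2 to 5 bone members, and array weights gave 8 and 2. Bone members were also 2 with only the 6 arrays compared. Neutrophil members were 12 with the replicate block and 17 with the block and only the 6 arrays.

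By the adjusted p, of 2138 gene values under the alternatives, 2107 kept their direction and their side of the threshold, 2 newly passed (Ngp and Mpo) and 29 turned in direction, in 11 genes that were not called. Leaving out 1 array gave -0.83 to 1.28 for Il1r2, -0.17 to 2.31 for Col1a1, -0.87 to 1.23 for Cd274, -0.64 to 1.93 for Il1b, -1.59 to 1.62 for Arg1, -0.33 to 0.26 for Cd8a, -1.09 to 0.085 for Mycn, -1.20 to 0.28 for Th, -0.35 to 0.19 for Acta1, -0.43 to 1.00 for Myog and -0.81 to 1.33 for Hmox1. Array weights turned Arg1 (0.15), Cd8a (0.063), Th (0.042) and Myog (-0.11). Quantile normalization turned Il1r2 (-0.11) and Cd8a (0.10), and median centring turned Il1r2 (-0.062). By the unadjusted 2-fold rule, 64 of the 102 genes were called, and over all alternatives 127 values lost that call and 36 gained it. The most calls were lost without tumor 2 at 72 h (23) and tumor 1 at 48 h (22), and the block with only the 6 arrays lost 0 and gained 8. The cause was not tested.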
